A study of Mus musculus with 8 samples.

Results

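The genes described here are 7 laminin chains that pair with, or stand in for, the Lama4 and Lama5 chains deleted in the study: the alpha chains Lama1, Lama2 and Lama3, the beta chains Lamb1 and Lamb2, and the gamma chains Lamc1 and Lamc3. They were chosen by symbol from the 31053 gene rows of the count matrices. Values of Lama4 and Lama5 are given only where a share or a pairing needs them. Single-cell RNA was measured in the cortical plate of brains from 8-week-old mice perfused with PBS, in 4 groups: Lama4-/- mice, their wild-type (WT) control, Tek-Cre:Lama5-/- mice, and a separate WT control for these. In the last mutant the Cre recombinase is driven by Tek, a gene of endothelial cells that is also known to be active in blood lineages, so Lama5 is not removed from every cell type. Each group was a pool of 3 mice, so the libraries of a group are samples of 1 pool, and p-values measure the spread between such libraries and not between mice. The Lama4-/- samples hold identical matrices and were counted as 1 library, which leaves 7 distinct libraries: 1 of the Lama4-/- pool (Lama4 KO), 2 of its WT, 2 of the Tek-Cre:Lama5-/- pool (Lama5 KO) and 2 of its WT.

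Laminins are cross-shaped proteins of the basement membrane, each built in the cell from 1 alpha, 1 beta and 1 gamma chain. The beta and gamma chains must pair before an alpha chain joins them, and the alpha chain then permits secretion and carries the part that integrins and dystroglycan bind. In brain vessels the endothelial basement membrane is known for laminins with the Lama4 or Lama5 chain, while the outer, parenchymal membrane made by astrocyte endfeet and by meningeal cells is known for those with Lama1 or Lama2. Lamb1 and Lamb2 are alternatives at the beta position. Lamc1 is the usual gamma chain, and Lamc3 is a rarer one. A chain's RNA does not say which trimer its protein entered, and the 3-prime kit counts molecules at their polyadenylated end, so levels are in CPM, the usual scaling of counts to the total UMIs of the cell class, and are not divided by gene length.

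The 7 libraries held 6295 to 9556 cell barcodes and 35479306 to 48314458 UMIs, and 47239 of 56961 barcodes were kept. Clusters were named from marker genes, written with "-like", and gave 15 classes with at least 50 cells over the WT libraries. All laminin chains were left out of the genes that defined the clusters. Endothelial-like cells numbered 2201 to 5039 per library, pericyte-like cells 164 to 307, smooth muscle-like cells 250 to 448, and fibroblast-like cells only 11 to 50. The kept cells had a median of 2920 to 6576 UMIs, lowest in the Lama5 KO libraries, and libraries shared 5 to 22 barcodes. Free RNA can set a floor under these levels. In microglia-like cells, which are not known to make these chains, the endothelial marker genes stood at a median of 0.876% of their endothelial level. That percentage would carry 1.44 CPM of Lamb2 and 0.476 CPM of Lamc1. The measured microglial levels were higher, at 11.3 CPM of Lamb2 and 5.56 CPM of Lamc1, and their source was not tested. An unnamed cluster of 160 cells with both endothelial and mural genes was left out of all classes. It held 69 and 66 cells of the Lama5 KO libraries and 6 and 12 of their WT.

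Lama1, a chain of meningeal and embryonic basement membranes, was the most restricted alpha chain. Over the WT libraries it stood at 34.3 CPM in fibroblast-like cells and at 1.20 CPM in endothelial-like cells. No WT UMI of it was found in astrocyte-like, smooth muscle-like, oligodendrocyte-like, ependymal-like or microglia-like cells. In astrocyte-like cells, a count of 0 allows a level of up to 0.663 CPM, taken as 3 counts of the class total, which covers counting error only. The fibroblast-like level differed widely between the experiments. The WT libraries of the Lama4 experiment gave 5.93 and 0 CPM from 43 and 30 cells, and the Lama4 KO library gave 15.7 CPM. The WT libraries of the Lama5 experiment gave 126 and 263 CPM from 13 and 16 cells, and the Lama5 KO libraries 255 and 104 CPM from 12 and 11 cells. Every library of the Lama5 experiment was above every library of the Lama4 experiment, and no test was made on so few cells.

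Lama2, the laminin alpha chain of muscle and glial basement membranes, was highest in pericyte-like cells. In the Lama4 experiment its pericyte-like level was 333 and 315 CPM (WT) and 290 CPM (KO). In the Lama5 experiment it was 261 and 289 CPM (WT) and 315 and 234 CPM (KO). The Lama5 KO libraries overlapped with those of their WT, the Lama4 KO library was below both of its own, and the WT libraries of the Lama4 experiment were above those of the Lama5 experiment. The mean over the 4 WT libraries was 299.6 CPM ± 31.4 (SD, n = 4). Fibroblast-like cells followed at 87.6 CPM, astrocyte-like cells at 65.7, smooth muscle-like cells at 42.1, oligodendrocyte-like cells at 21 and neuroblast-like cells at 20.9. Pericyte-like cells were apart from fibroblast-like cells over the WT libraries with at least 20 cells, and smooth muscle-like cells were apart from oligodendrocyte-like cells. The neighbours from fibroblast-like to smooth muscle-like cells overlapped. Endothelial-like cells held 0.43 CPM, from 35 UMIs, beside 0.53 CPM in microglia-like cells. Lama2 lies on chromosome 10 (GRCm38, 26980036 to 27619758, minus strand) and overlaps the antisense gene Gm48084, which was itself listed at no more than 1 UMI in any class shown.

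Lama3, the alpha chain best known from epithelial anchoring membranes, had a different order of classes. Astrocyte-like cells stood at 30.5 CPM, ependymal-like cells at 24.0 and endothelial-like cells at 14.5, and these neighbours overlapped. In endothelial-like cells the WT libraries gave 13.2 and 16.7 CPM in the Lama4 experiment and 14.8 and 13.6 in the Lama5 experiment. These are close to each other and above every WT library of pericyte-like cells, which stood at 4.84 CPM over the class and at most at 12.1 CPM in a library. All 14 pericyte-like WT UMIs of Lama3 came from a small cluster of 177 cells, with 41 to 54 cells in each library of the Lama4 experiment and 5 to 15 in each of the Lama5 experiment. The larger pericyte-like cluster held none.

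**Figure D1:**
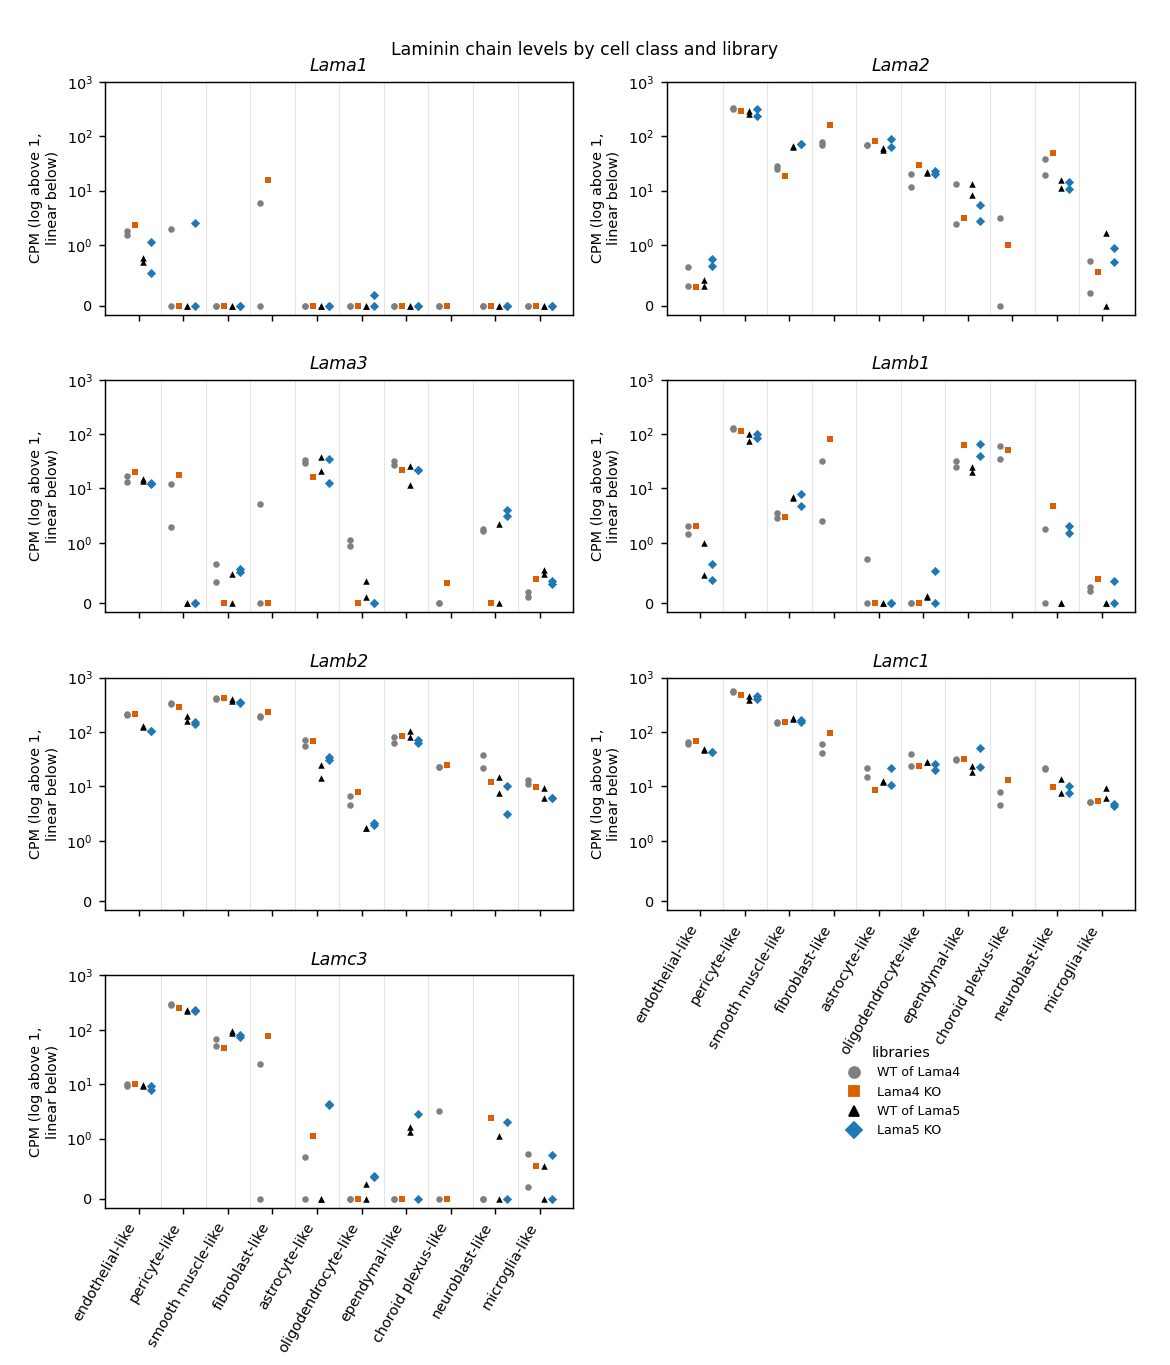
Level of each of the 7 laminin chains (vertical axis, CPM, log scale above 1 and linear below) in 10 cell classes (horizontal axis), with 1 point per library of at least 20 cells, coloured by group. Lama2, Lamc1 and Lamc3 peak in pericyte-like cells, Lamb2 in smooth muscle-like cells, and Lama3 in astrocyte-like, ependymal-like and endothelial-like cells.

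Of the beta chains, Lamb2, the beta chain of mature vessel, muscle and synaptic membranes, was found in every vascular class. It stood at 403 CPM in smooth muscle-like cells, 285 in pericyte-like cells, 194 in fibroblast-like cells and 164 in endothelial-like cells, then at 84.2 in ependymal-like and 46.9 in astrocyte-like cells. Smooth muscle-like cells were apart from pericyte-like cells, and endothelial-like from ependymal-like cells, while the classes between overlapped. Lamb1, the beta chain of most embryonic laminins, was high in fewer classes: 115 CPM in pericyte-like cells, 49.7 in choroid plexus-like, 43.8 in fibroblast-like and 25.3 in ependymal-like cells. In smooth muscle-like cells it stood at only 4.66 CPM. The fibroblast-like level of Lamb1 was 2.55 to 32.6 CPM in the WT libraries of the Lama4 experiment. In the WT of the Lama5 experiment, with 13 and 16 such cells, it was above the pericyte-like level. The Lama4 experiment gave pericyte-like levels of 123 and 132 CPM (WT) and 114 CPM (KO). The Lama5 experiment gave 75.4 and 99.2 CPM (WT) and 101 and 83.2 CPM (KO). These pericyte-like levels were all higher in the libraries of the Lama4 experiment than in those of the Lama5 experiment.

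The promoter sequences of this beta pair are shown because their RNA divides the vessel wall so unevenly. They were read from RefSeq's promoter table (GRCm38.p6), in which 3 of the 7 chains had an entry, and were kept only as far as both RefSeq and GENCODE place them before the gene. Capitals mark the GC box GGGCGG, searched on both strands, so CCGCCC is the same box on the other strand. The Lamb1 window is chr12:31265043-31265233, the Lamb2 window is chr9:108479612-108479735, and both genes lie on the plus strand.
Lamb1: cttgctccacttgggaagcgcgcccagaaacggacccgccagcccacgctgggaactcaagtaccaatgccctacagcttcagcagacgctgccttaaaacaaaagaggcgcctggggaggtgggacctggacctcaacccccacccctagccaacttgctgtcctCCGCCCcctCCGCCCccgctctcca
Lamb2: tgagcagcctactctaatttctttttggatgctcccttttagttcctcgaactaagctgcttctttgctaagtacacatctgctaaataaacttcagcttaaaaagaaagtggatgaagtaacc
The Lamb1 window of 191 bases has 63.9% G and C and holds 2 GC boxes, which overlap no other motif searched. Of 32851 promoter windows of that length, 23.1% hold at least 1 such box. The Lamb2 window of 124 bases has 37.9% G and C and holds no GC box, and 13.3% of windows of its length hold one. Neither window holds a TATAAA box or a CArG box on either strand, which 8.78% and 1.08% of windows of the Lamb1 length hold. These windows end 59 and 126 bases short of the RefSeq starts of Lamb1 and Lamb2, so the letters next to the start were not searched.

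Of the gamma chains, Lamc1, the common gamma chain, stood at 518 CPM in pericyte-like cells, 159 in smooth muscle-like cells, 86.8 in fibroblast-like cells, 54.3 in endothelial-like cells and 28.0 in oligodendrocyte-like cells. Over the WT libraries with at least 20 cells, pericyte-like cells were apart from smooth muscle-like cells and these from fibroblast-like cells. Fibroblast-like cells, with such libraries only in the Lama4 experiment, overlapped with endothelial-like cells, which were apart from oligodendrocyte-like cells. The fibroblast-like level was 52.6 CPM in the WT of the Lama4 experiment and 280 CPM in that of the Lama5 experiment. In the latter it was above the smooth muscle-like level of 174 CPM. Lamc3, which can take the place of Lamc1, was also highest in pericyte-like cells. It stood at 272 CPM in pericyte-like cells, 72.1 in smooth muscle-like cells, 41.4 in fibroblast-like cells and 9.42 in endothelial-like cells. The fibroblast-like level of Lamc3 was 0 to 23.7 CPM in the WT libraries of the Lama4 experiment. In the WT of the Lama5 experiment, with 13 and 16 such cells, it was above the smooth muscle-like level. Pericyte-like levels of Lamc3 in the Lama4 experiment were 286 and 297 CPM (WT) and 248 CPM (KO). Those in the Lama5 experiment were 221 and 234 CPM (WT) and 230 and 222 CPM (KO). In astrocyte-like and oligodendrocyte-like cells Lamc3 was found in 1 and 2 WT UMIs. Immune classes other than microglia-like cells held at most 3 WT UMIs of Lama1, Lama2, Lama3, Lamb1 or Lamc3 each. Their Lamb2 and Lamc1 levels ran from 3.27 to 23.8 CPM.

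Shares of UMIs within a class show which chains accompany each other there, with exact Clopper-Pearson 95% intervals that cover counting error only. Pericyte-like cells stood apart from smooth muscle-like and endothelial-like cells by their beta chain. Lamb1 made up 28.8% (26.2% to 31.5%) of the Lamb1 and Lamb2 UMIs in pericyte-like cells, 18.4% (14.2% to 23.3%) in fibroblast-like cells, 1.15% (0.843% to 1.52%) in smooth muscle-like cells and 0.747% (0.609% to 0.907%) in endothelial-like cells. The fibroblast-like share differed between the WT pools, at 10.04% (23 of 229 UMIs) in the Lama4 experiment and 45.7% (32 of 70) in the Lama5 experiment, below the pericyte-like share of the same pool in the first (27.8%) and above it in the second (32.9%). The pericyte-like share depends on where the class ends. With a finer clustering that moved part of the smooth muscle-like cells into the pericyte-like class (433, 413, 415 and 441 WT cells in place of 307, 293, 164 and 177), it was 11.7%. In the larger pericyte-like cluster alone, an alternative added after the data were seen, it was 31.0% (28.1% to 33.9%). Outside the vessel wall Lamb1 was the larger beta chain in choroid plexus-like cells, at 68.8% (57.3% to 78.9%) of 77 UMIs, and made up 23.1% (18% to 28.8%) in ependymal-like cells. In astrocyte-like cells 1 of 213 beta UMIs was Lamb1.

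The gamma pair divided the classes differently. Lamc3 made up 34.5% (32.5% to 36.5%) of the Lamc1 and Lamc3 UMIs in pericyte-like cells, 31.2% (29.3% to 33.1%) in smooth muscle-like cells and 32.3% (25.2% to 40.1%) in fibroblast-like cells. These intervals, over both WT pools, overlap. The fibroblast-like share was 22.2% in the WT of the Lama4 experiment and 40.4% in that of the Lama5 experiment. In the first, smooth muscle-like cells had a lower share than pericyte-like cells, with 350 UMIs of Lamc3 beside 880 of Lamc1 against 591 beside 1133. In the second, the mean shares were 34.2% in smooth muscle-like and 35.2% in pericyte-like cells. The Lamc3 share was 14.8% (13.8% to 15.8%) in endothelial-like cells, 1.35% (0.0342% to 7.30%) in astrocyte-like cells and 0.355% (0.0430% to 1.28%) in oligodendrocyte-like cells. So smooth muscle-like and endothelial-like cells shared a beta pool made almost wholly of Lamb2 but differed in their gamma pool, and pericyte-like cells had both of the rarer chains.

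**Figure D2:**
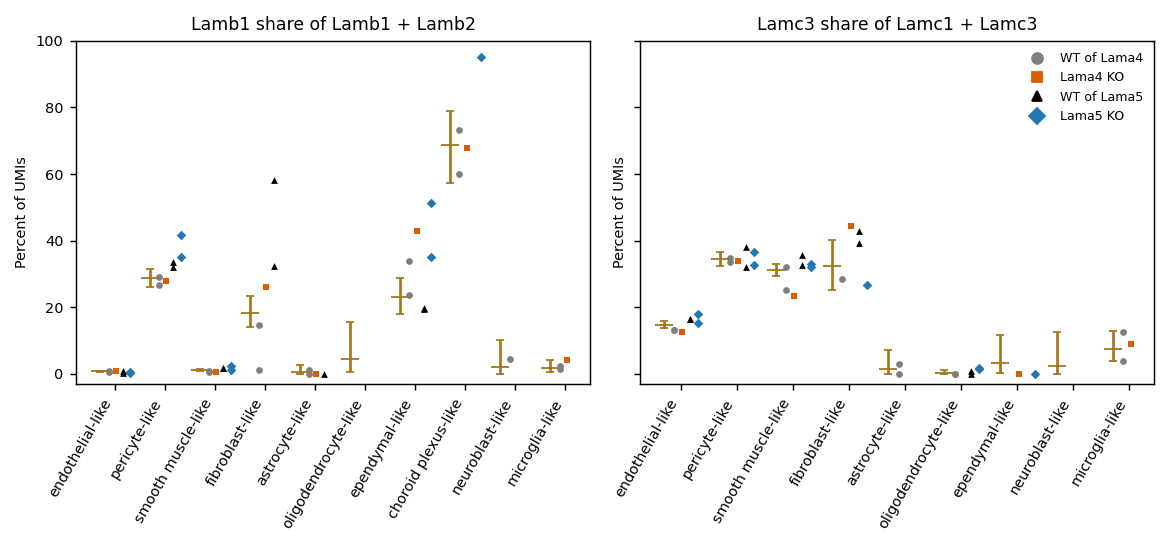
Share of Lamb1 among Lamb1 and Lamb2 UMIs and of Lamc3 among Lamc1 and Lamc3 UMIs (vertical axes, percent) by cell class. Brown bars are the share over the summed WT libraries with its exact 95% interval, and points are single libraries with at least 20 such UMIs, coloured by group. The Lamb1 share is high in pericyte-like, ependymal-like and choroid plexus-like cells and near 0 in endothelial-like and smooth muscle-like cells, while the Lamc3 share is near a common level in pericyte-like and smooth muscle-like cells.

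The alpha chains found beside the beta and gamma chains differed between classes. In endothelial-like cells, Lama5 made up 49.1% of the alpha UMIs of the WT, Lama4 35.6%, Lama3 13.8%, Lama1 1.14% and Lama2 0.406%, and these stood beside Lamb2 with Lamc1 as the main gamma chain. In pericyte-like cells Lama2 made up 56.9% (54.4% to 59.4%), Lama4 39.6% and Lama5 2.48%, beside Lamb2 and Lamb1 with both gamma chains. In smooth muscle-like cells Lama5 made up 62.2%, Lama4 19.4% and Lama2 18.2%, beside Lamb2 and both gamma chains. The order of the last pair differed between the WT pools, with Lama2 at 11.9% and Lama4 at 19.1% in the Lama4 experiment and Lama2 at 26.5% and Lama4 at 19.9% in the Lama5 experiment. Fibroblast-like cells had Lama2 at 48.7%, Lama4 at 24.3% and Lama1 at 19.0% over both WT pools, which were unlike. In the Lama4 experiment Lama2 made up 55.9% and Lama1 2.80%, and in the Lama5 experiment Lama1 made up 47.0% (39 of 83 UMIs) and Lama2 36.1%. Astrocyte-like cells held 60.6% Lama2, 28.2% Lama3 and 8.78% Lama5 beside Lamb2 and Lamc1, and ependymal-like cells 46.2% Lama3, 34.5% Lama5 and 19.3% Lama2 beside both beta chains. In oligodendrocyte-like cells Lama2 made up 93.1% (90.4% to 95.3%) of the alpha UMIs. Of their Lamc1 and Lamc3 UMIs nearly all were Lamc1.

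**Figure D3:**
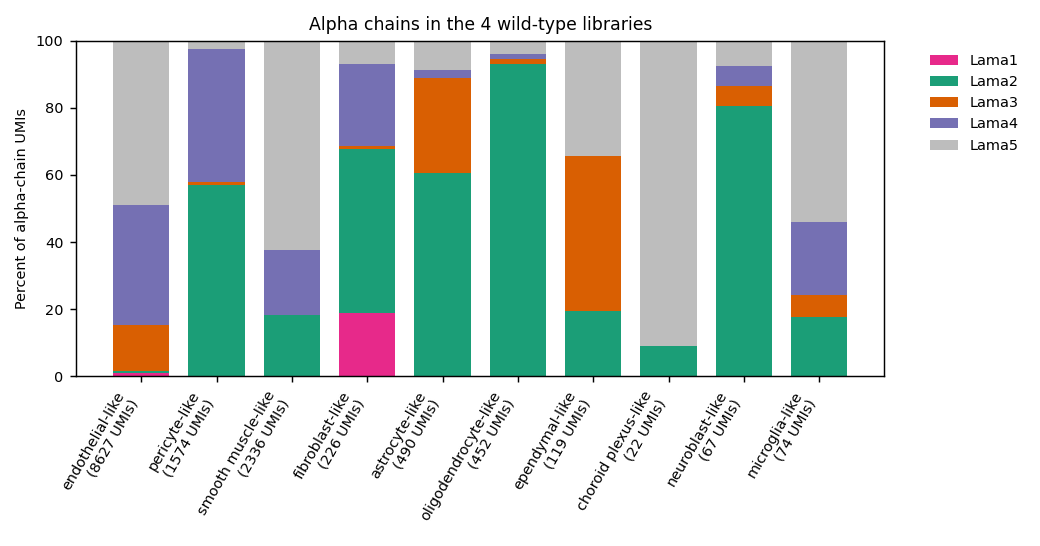
Share of each of the 5 alpha chains among all alpha-chain UMIs of the WT libraries (vertical axis, percent) by cell class. Lama2 takes the largest share in pericyte-like, fibroblast-like, astrocyte-like, oligodendrocyte-like and neuroblast-like cells. Lama5 takes it in endothelial-like, smooth muscle-like, choroid plexus-like and microglia-like cells, and Lama3 in ependymal-like cells. In fibroblast-like cells the largest share was Lama1 in the WT of the Lama5 experiment alone. Lama5 stood at only 1.62 CPM in microglia-like cells and had only 20 UMIs in choroid plexus-like cells.

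Across the 15 classes, which share the same 4 WT libraries, the levels on the log2(CPM + 1) scale gave Pearson correlations that serve only as a description. Lamc3 ran closest to Lama4 (r = 0.94), as did Lamc1 (0.88), and Lamb2 ran closest to Lamc1 (0.86) and Lama4 (0.84). For Lama5 the closest of the 7 chains was Lamb2 (0.78). Lama2 ran closest to Lamc1 (0.71), Lamb1 to Lamc3 (0.72), and Lama3 gave 0.43 with Lama5 and 0.42 with Lamb2. Among 12448 genes compared, the 3 nearest to each chain were Timp1, Lypd2 and Slc22a6 for Lama1 (r = 0.98 to 0.99), Cdh11, Rgma and 1810055G02Rik for Lama2 (0.93 to 0.96), and Kifc3, Hey1 and Fam181b for Lama3 (0.87 to 0.92). For the beta chains they were Kdelr3, Angptl2 and Loxl2 for Lamb1 (0.91 to 0.92) and Cavin1, Arhgap29 and Ackr3 for Lamb2 (0.96). For the gamma chains they were Ehd2, Tmed8 and Mprip for Lamc1 (0.90 to 0.91) and Nid1, Egflam and Tmem45a for Lamc3 (0.96 to 0.97). Nid1 encodes nidogen, which binds the gamma chain of laminins. The Lama1 correlations rest mainly on fibroblast-like cells, at 34.3 CPM of Lama1 from 102 WT cells. All other classes held 1.20 CPM of Lama1 or less.

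Within endothelial-like cells, clusters were given a zone where at least 3 zone markers stood out from the other endothelial clusters. This gave 8403 arterial-like cells, 3004 venous-like cells and 14997 cells with no zone. As clusters of the same cells are compared, these levels are a description with no test. Lama3, at 14.5 CPM over the class, was unevenly spread. Arterial-like cells held 26.8 and 33.3 CPM (WT) and 42.8 CPM (KO) in the Lama4 experiment, and 32.9 and 30.4 CPM (WT) and 26.7 and 27.7 CPM (KO) in the Lama5 experiment. Cells with no zone held 1.87 to 2.84 CPM and venous-like cells 7.38 to 11.4 CPM. In 7 of 7 libraries the order was arterial, venous, no zone, and the arterial level was 9.45 to 16.1 times that of cells with no zone. The 4 arterial-like clusters themselves ran from 4.29 to 59.3 CPM of Lama3. Clusters with no zone ran from 1.73 to 5.07 CPM, and the venous-like clusters stood at 8.28 and 10.1 CPM. So the lowest arterial-like cluster lay below the venous-like clusters and within the range of those with no zone. Smooth muscle-like cells, the neighbours of arteries, held 0.397 CPM of Lama3. The astrocyte markers, without the S1pr1 gene that endothelial cells also use, summed to 119 to 207 CPM in arterial-like cells and 134 to 204 CPM in cells with no zone, and none of the 7 was at 0.

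The partner chains followed the arterial zone to a smaller degree. Lamb2 stood at 131 to 269 CPM in arterial-like cells and at 75.3 to 181 CPM in cells with no zone, higher in 7 of 7 libraries by 1.33 to 1.87 times. Lamc1 was 1.31 to 1.66 times higher in 7 of 7 libraries, and Lamc3, at 13.8 to 16.7 CPM against 4.89 to 7.90, was 1.83 to 3.01 times higher. Single arterial-like clusters were not alike, at 98.9 to 280 CPM of Lamb2, 56.8 to 83.1 of Lamc1 and 3.76 to 21.4 of Lamc3. Clusters with no zone ran from 80.5 to 167, 35.7 to 59.2 and 3.91 to 7.32 CPM, so the ranges overlapped. In venous-like cells Lamb2 was again higher than in cells with no zone in 7 of 7 libraries, by 1.06 to 1.36 times, while Lamc1 was lower in 7 of 7, at 30.0 to 44.9 CPM against 36.6 to 62.1. The smooth muscle markers summed to 115 to 189 CPM in arterial-like cells, 0.419% to 0.689% of their own class, against 33.0 to 123 CPM in cells with no zone, and at most 1 of 8 was at 0. Their part in the arterial levels of Lamb2, Lamc1 and Lamc3 was not tested. Within the endothelium Lama1 had most of its UMIs in venous-like cells. Over the 7 libraries it had 128 UMIs in venous-like cells, 35 in arterial-like cells and 3 in cells with no zone. The 8 fibroblast markers summed to 0.552 to 2.05 CPM in the venous-like cells, with 2 to 4 of them at 0 in a group. Zones named again under a finer clustering, a stricter cell filter and with doublets kept, alternatives added after the data were seen, gave an arterial Lama3 level 9.12 to 12.2 times that of cells with no zone over the summed libraries, beside 12.4 times for the zones used here. Under the finer clustering venous-like cells were above cells with no zone in 6 of 7 libraries for Lamb2 and for Lama3, whose venous ratio went from 3.50 to 2.04.

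**Figure D4:**
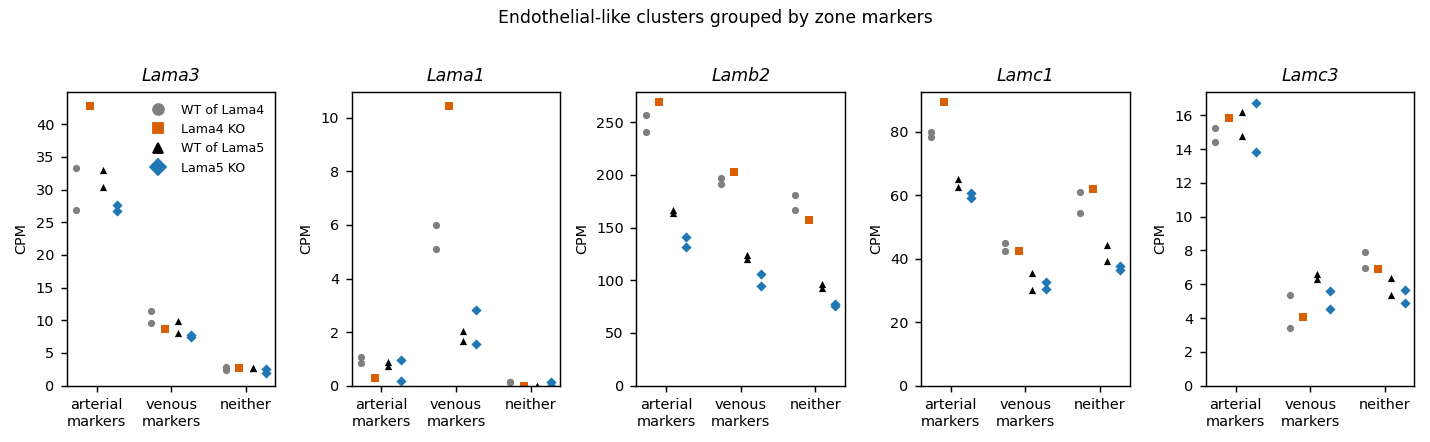
Levels of Lama3, Lama1, Lamb2, Lamc1 and Lamc3 (vertical axes, CPM) in arterial-like, venous-like and no-zone endothelial clusters, with 1 point per library coloured by group. Lama3 is at 26.7 to 42.8 CPM in arterial-like cells and under 3 CPM in cells with no zone in all 7 libraries, and Lama1 is highest in venous-like cells.

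Deletion of Lama5 by Tek-Cre was compared with its own WT by edgeR's quasi-likelihood test on UMIs summed per library and class, with Benjamini-Hochberg adjustment over all genes tested. In endothelial-like cells Lama5 fell from 42.9 and 41.2 CPM to 22.2 and 24.0 (log2 fold change -0.79 ± 0.06 SE). Lama4 rose from 29.8 and 31.5 to 48.7 and 45.7 CPM (0.70 ± 0.06). Whether the counted end of Lama5 RNA lies in the deleted part is not given in the sources used here, so the UMIs left do not measure the deletion. Of the 7 partner and other alpha chains, 1 was called, Lamb2, which fell. Of all 13181 genes tested, 8.5% were called lower and 19.2% in either direction, so 1 called chain of 7 is near the background.

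Lamb2 stood at 104 and 103 CPM in the Lama5 KO and at 125 and 127 CPM in its WT. Both KO libraries were below both WT libraries, and the log2 fold change was -0.21 ± 0.03 (SE, adjusted p = 1.01e-05, edgeR). The fall was not confined to a zone: arterial-like cells had 131 and 141 CPM against 164 and 167, venous-like cells 106 and 94.4 against 120 and 124, and cells with no zone 77.7 and 75.3 against 92.9 and 96.7. Arterial-like cells made up 30.6% and 30.1% of the endothelial-like cells in the KO and 31.0% and 29.0% in the WT. The astrocyte markers without S1pr1 also had lower sums in this class, 133 CPM in both KO libraries and 171 and 173 CPM in the WT. Their part in the Lamb2 result was not tested. Lamb2 was still called under each of the alternatives tried, at adjusted p-values of 3.00e-07 to 0.00571.

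The other 6 chains did not pass the test in endothelial-like cells. Lama3 had 11.8 and 12.4 CPM in the KO and 14.8 and 13.6 in the WT (log2 fold change -0.15 ± 0.09, adjusted p = 0.285, edgeR). Lamc1 had 43.5 and 43.2 CPM against 48.3 and 45.8, and its groups did not overlap in plain CPM, but on TMM-scaled totals the log2 fold change was -0.04 ± 0.05 (adjusted p = 0.668, edgeR). Lamc3 had 7.77 and 9.43 CPM against 9.54 and 9.05, with the same log2 fold change and overlapping libraries. Lama2 had 25 UMIs in the KO and 16 in the WT (1.01 ± 0.45, adjusted p = 0.122, edgeR), Lama1 had 30 and 33, and Lamb1 lay at 0.38 to 1.00 CPM. In plain CPM 4 of the 7 chains had libraries that did not overlap between KO and WT, against 60.9% of all genes with at least 20 UMIs.

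**Figure D5:**
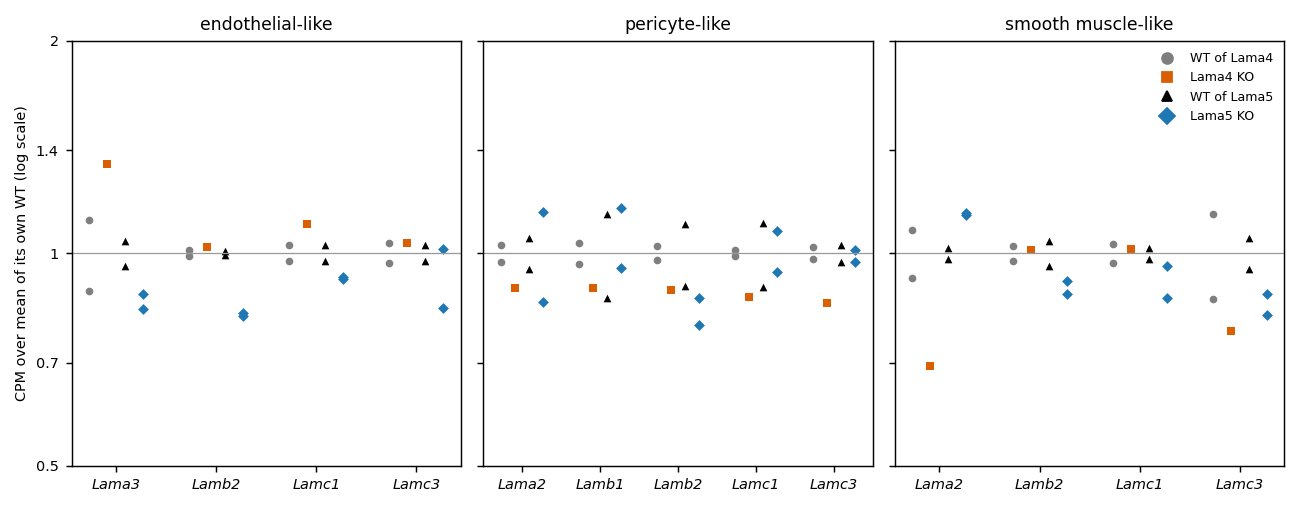
Level of each laminin chain in a library divided by the mean of its own 2 WT libraries (vertical axis, ratio, log scale) in endothelial-like, pericyte-like and smooth muscle-like cells, with 1 point per library coloured by group. In endothelial-like cells both Lama5 KO libraries lie below both of their WT libraries for Lamb2, while the Lama4 KO library lies at 1.02 times its WT.

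Outside the endothelium no partner chain was called in the Lama5 KO. The share of all genes called was 0.936% in pericyte-like, 5.7% in smooth muscle-like, 9.04% in astrocyte-like, 11.1% in oligodendrocyte-like and 14.3% in microglia-like cells, where 5, 5, 3, 3 and 2 of the 7 chains passed the filter on low counts. The filter left none in neuroblast-like cells, where 3.36% of genes were called. Lamb2 had 355 and 341 CPM in smooth muscle-like cells of the KO against 405 and 374 in the WT (log2 fold change -0.06 ± 0.06, adjusted p = 0.685, edgeR). In pericyte-like cells it had 141 and 154 against 160 and 196 (-0.22 ± 0.19, adjusted p = 0.768, edgeR). Its KO libraries lay below the WT in both classes, where 48.7% and 38.2% of genes had no overlap. Astrocyte-like cells went the other way, with 31.1 and 35.2 CPM of Lamb2 in the KO against 14.1 and 24.4 (0.71 ± 0.38, adjusted p = 0.272, edgeR). The difference of the Lamb2 effect from that in endothelial-like cells did not pass the test in any of them (adjusted p = 1 for pericyte-like, 0.679 for smooth muscle-like and 0.221 for astrocyte-like cells, edgeR, where 0.0612%, 0.52% and 3.79% of genes were called). Lama2 in smooth muscle-like cells had 72.4 and 72.9 CPM in the KO and 65.0 and 62.8 in the WT (0.28 ± 0.12, adjusted p = 0.201, edgeR), with no overlap.

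The partners' shares were compared by exact two-sided permutation over 2 against 2 libraries, for which 0.33 is the smallest p possible, and the smallest adjusted p over the 62 shares was 0.765. For 27 of these 62 shares the libraries of KO and WT did not overlap, so lack of overlap was common. The alpha pool of endothelial-like cells went from 34.8% to 56.2% Lama4, from 47.8% to 27.5% Lama5 and from 16.1% to 14.5% Lama3, with no overlap of the libraries. The Lamc3 share was 16.5% in both groups, and the pericyte-like Lamb1 share went from 32.8% to 38.4%. The ependymal-like Lamb1 share, from 40 to 98 UMIs per library, stood at 35.0% and 51.4% in the KO libraries against 19.7% and 19.4% for their WT, with no overlap. In the Lama4 experiment it was 23.8% and 34.0% (WT) and 42.9% (KO). Of the laminin linkers and other network genes of the membrane, 5 of 9 tested were lower and 0 higher in endothelial-like cells by edgeR. Of all genes there, 8.5% were called lower and 10.7% higher. The median log2 fold change of the list was -0.21, against -0.002 over all genes. The lower genes include Sparc (-0.37), which binds collagen, Agrn (-0.34) and Hspg2 (-0.28), which encode agrin and perlecan, and Col4a2 (-0.25), a collagen IV chain. Of the laminin receptors, 9 of 12 could be tested and 2 were lower, the integrin chain Itga1 (-0.25, adjusted p = 3.84e-11) and the Lama5 receptor Bcam (-0.18, adjusted p = 2.40e-05). That is 2 of 9 receptors, near the 19.2% of all genes called in this class. Both lists were chosen with earlier results of these data known, so their direction is not independent evidence.

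The Lama4 KO had 1 library, so its levels are given with exact intervals of the ratio to its WT, which cover counting error only, and no test was made. The deletion is visible in its own gene, with 1 UMI of Lama4 in the endothelial-like cells of the KO and 1741 in its WT. Lamb2 in endothelial-like cells stood at 211 CPM, against 205 and 209 CPM in its control libraries (ratio 1.02, 0.980 to 1.06), or 0.985 on TMM-scaled totals. Lamc1 stood at 69.0 CPM against 61.1 and 64.3 (1.10, 1.03 to 1.18), or 1.06 on TMM-scaled totals, for which no interval is given here. Lama3 stood at 20.001 CPM against 13.2 and 16.7 (1.35, 1.17 to 1.54), beside Lama5 at 76.0 CPM against 62.1 and 63.3 (1.21, 1.13 to 1.30). The Lama3 difference was also present within arterial-like cells, at 42.8 CPM against 26.8 and 33.3, and arterial-like cells made up 37.6% of the endothelial-like cells against 35.4% and 36.7%. Lamc3 stood at 9.88 CPM against 9.26 and 9.88, and Lama1, Lamb1 and Lama2 had 38, 34 and 5 UMIs with intervals that include 1. The KO level lay outside both WT libraries for 6 of the 7 chains, as for 78.8% of genes. On totals without TMM scaling, an interval that excludes 1 was found for 2 of the 7, against 29% of all genes with at least 20 UMIs. None passed the rule of size, a log2 ratio of at least 1 in either direction with such an interval, which 1.52% of genes passed.

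In pericyte-like cells of the Lama4 KO, the 5 main partner chains each had a level below both WT libraries. Lama2 stood at 290 CPM against 333 and 315, Lamb1 at 114 against 123 and 132, Lamb2 at 293 against 338 and 323, Lamc1 at 485 against 565 and 553, and Lamc3 at 248 against 286 and 297. Of all genes, 71.2% lay outside both WT libraries. The ratios ran from 0.851 to 0.895, with an interval that excludes 1 for Lamc1 (0.867, 0.773 to 0.971) and Lamc3 (0.851, 0.725 to 0.997). Endothelial markers in these pericyte-like cells stood at a median of 30.4% of their endothelial level in the KO and 9.03% in the WT. These percentages would carry 6.08 and 1.34 CPM of Lama3, beside 17.4 and 6.91 CPM measured. The part of endothelial RNA in the lower values and in the Lama3 value was not tested. In the larger pericyte-like cluster alone the ratios ran from 0.847 to 0.935 and every interval included 1, as for Lamc1 (0.887, 0.781 to 1.01). Lama3 passed the rule of size with 15 UMIs in the KO and 14 in the WT (2.52, 1.13 to 5.63), all of them in the small cluster, and its ratio ran from 1.44 to 8.99 without each WT library in turn and was 0 under a stricter cell filter. That makes 3 of 6 chains with an interval that excludes 1, against 12.4% of genes, and 1 past the rule of size, against 4.04%.

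In smooth muscle-like cells of the Lama4 KO the main beta and gamma chains had ratios near 1. Lamb2 stood at 417 CPM against 423 and 402 (1.01, 0.934 to 1.10) and Lamc1 at 151 against 144 and 153 (1.01, 0.885 to 1.16). Lamc3 stood at 46.2 CPM against 67.7 and 51.3 (0.781, 0.613 to 0.985), but with the finer clustering its ratio was 1.10. Lama2 stood at 18.6 CPM against 28.9 and 24.7 (0.695, 0.472 to 1.00, just short of 1). Of 5 chains, 2 lay outside both WT libraries, against 73.5% of genes, the same 2 had an interval that excludes 1, against 12.9%, and none passed the rule of size, against 1.61%. In astrocyte-like cells Lama3 stood at 16.3 CPM against 29.0 and 33.0 (0.529, 0.335 to 0.813) and Lamc1 at 8.45 against 22.1 and 14.6 (0.457, 0.239 to 0.825), from 29 and 15 UMIs, while Lama2 and Lamb2 had intervals that include 1. There 2 of 4 chains had an interval that excludes 1, against 11.5% of genes, and Lamc1 passed the rule of size, which 1.65% did. In neuroblast-like and microglia-like cells 3 and 2 chains had enough UMIs and none had an interval that excludes 1, against 13.7% and 21.6% of genes, nor passed the rule of size, against 7.07% and 1.8%.

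The WT pools of the experiments, which carry no deletion, also differed from each other, so each KO was set only against its own WT. In endothelial-like cells 55.9% of genes were called between the WT pools by edgeR, and 4 of 6 chains tested were lower in the WT of the Lama5 experiment. These were Lamb2 (log2 fold change -0.61 ± 0.03), Lamc1 (-0.30 ± 0.05), Lama1 (-1.04 ± 0.29) and Lamb1 (-1.17 ± 0.34), where 27% of genes were called lower. Lama3 (0.05 ± 0.10) and Lamc3 (0.07 ± 0.10) did not pass the test. The endothelial clusters themselves divided mostly by experiment. In smooth muscle-like cells, 28.5% of genes were called, 15% higher and 13.4% lower. Lama2 (1.17 ± 0.15) and Lamc3 (0.53 ± 0.12) were among the higher and Lamb2 (-0.17 ± 0.06) among the lower, with the WT of the Lama5 experiment set over that of the Lama4 experiment. In pericyte-like cells, where 10% of genes were called and 4.35% were called lower, Lamb2 was the only one of 5 chains called (-0.82 ± 0.14). It was also lower in astrocyte-like cells (-1.69 ± 0.26), where 15.2% of genes were called and 7.01% were called lower. None of 3 chains was called in oligodendrocyte-like cells, where 11.8% of genes were. In microglia-like cells Lamb2 was lower too (-0.83 ± 0.27), where 51.6% were called and 24.9% were called lower. These differences combine the mice, the preparation and the depth of the experiments, which cannot be told apart.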

How the data were processed

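Deposited values were raw UMI counts per gene and cell, made by the authors with Cell Ranger per the submitters' processing notes, which also name Seurat 3.1 and the mm10 build. The annotation and strand setting are not given in the sources used here. Positions come from GENCODE M21 on GRCm38, which holds 99.9% of the 31053 gene IDs.

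Cells with at least 500 detected genes and at most 15% mitochondrial UMIs were kept, and the highest doublet scores (0.8% per 1000 cells of a library) were removed. Clusters came from 2000 variable genes without laminin chains, 30 principal components, 15 neighbours and Leiden clustering at resolution 1 (leidenalg 0.10.2). A class needed 3 markers detected in 25% of a cluster's cells at 2-fold of the median cluster. UMIs were summed per library and class, and a class was tested where each library compared held 50 cells or more. The Lama5 KO was tested with edgeR 4.0.16 in R 4.3.3 (filterByExpr, TMM, adjusted p under 0.05), tried also with DESeq2 1.42.0, other scaling, no filter, a replicate block, other cell filters and clusterings, and without each library. Ratios and shares need at least 20 UMIs. The test script was checked on simulated data. The genes named are the chains, the called genes of the linker and receptor lists with the largest changes in endothelial-like cells, up to 4 per direction and list, and the 3 genes most like each chain among those at 20 CPM or more in a class. Members and lists were chosen with earlier results of these data known.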

Additional observations from a re-analysis of the deposited data

Results flagged for a closer look

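Results below stood out because the change in 1 setting differed from that in another. The Lama5 KO changed Lama5 itself differently in smooth muscle-like and endothelial-like cells. The log2 fold change in smooth muscle-like cells minus that in endothelial-like cells was 0.89 (adjusted p = 0.000195, edgeR's class-by-genotype term), where 0.52% of 13265 genes were called.

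In 5 of 21 pairs of values, both libraries of the Lama5 KO lay on one side of their WT and the Lama4 KO library lay on the other side of its own WT. The differences between the mutants were not tested, and the share of such opposite pairs over all genes was not computed. In endothelial-like cells 60.9% of genes had no overlap in the Lama5 KO, and 78.8% lay outside both WT libraries in the Lama4 KO. For smooth muscle-like cells these shares were 48.7% and 73.5%, so each condition alone was common. In endothelial-like cells the ratios for the Lama5 KO and the Lama4 KO were 1.92 and 0.617 for Lama2, which has few UMIs, 0.854 and 1.35 for Lama3, 0.820 and 1.02 for Lamb2, and 0.921 and 1.10 for Lamc1. In smooth muscle-like cells they were 1.14 and 0.695 for Lama2. Of these, the edgeR test called only Lamb2 in the Lama5 KO, and on TMM-scaled totals the Lamb2 ratio of the Lama4 KO was 0.985, on the same side as the Lama5 KO.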

How the results depend on the processing

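No laminin chain crossed the test's threshold under any alternative: 294 fold changes kept direction and call and 30 uncalled ones changed sign. Signs changed with doublets kept for endothelial-like Lamb1 (0.95) and Lamc3 (0.038), pericyte-like Lama2 (-0.067), Lamb1 (-0.059), Lamc1 (-0.014) and Lamc3 (-0.086), smooth muscle-like Lamb1 (0.31) and oligodendrocyte-like Lamb2 (-0.13). They changed under the stricter cell filter for pericyte-like Lama2 (-0.062) and Lamc3 (-0.047), and at resolution 2 for smooth muscle-like Lamb2 (0.070). Without each library in turn the endothelial-like log2 fold changes ran from -0.43 to 0.66 for Lama1, -0.89 to 0.20 for Lamb1, -0.078 to 0.00098 for Lamc1 and -0.19 to 0.10 for Lamc3. The pericyte-like ones ran from -0.17 to 0.25 for Lama2, -0.049 to 0.37 for Lamb1 and -0.061 to 0.22 for Lamc1. The smooth muscle-like ones ran from -0.049 to 0.18 for Lama4, -0.41 to 0.33 for Lamb1 and -0.11 to 0.045 for Lamc1. Astrocyte-like Lama3 ran from -1.35 to 0.20, oligodendrocyte-like Lama2 from -0.061 to 0.13 and microglia-like Lamb2 from -0.52 to 0.047.

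The counts of genes called by edgeR moved more. DESeq2 called 863 genes in endothelial-like cells in place of 2536, 8 in pericyte-like in place of 58, 169 in smooth muscle-like in place of 550, 208 in astrocyte-like in place of 764, 269 in oligodendrocyte-like in place of 1217, 79 in neuroblast-like in place of 280 and 392 in microglia-like cells in place of 1374. Resolution 2 gave 345 pericyte-like, 135 smooth muscle-like, 1147 astrocyte-like and 9 neuroblast-like genes, the stricter cell filter 27 pericyte-like, 1192 astrocyte-like and 5 neuroblast-like genes, and doublets kept 5 pericyte-like and 8 neuroblast-like genes. With no filter on low counts edgeR called 461 neuroblast-like genes and 0 astrocyte-like genes, where 2119 had an unadjusted p under 0.05. Without each library the counts ran from 1945 to 2119 (endothelial-like), 18 to 39 (pericyte-like), 348 to 476 (smooth muscle-like), 339 to 1472 (astrocyte-like), 536 to 944 (oligodendrocyte-like), 8 to 333 (neuroblast-like) and 807 to 1098 (microglia-like). The cause was not tested.

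The replicate block gave 2622 endothelial-like, 74 pericyte-like, 681 smooth muscle-like, 728 astrocyte-like, 1425 oligodendrocyte-like, 361 neuroblast-like and 1504 microglia-like genes and changed no chain's call. Libraries of the same number share only that number, as their deviations correlated at -0.09 in endothelial-like cells. For the Lama4 KO, TMM-scaled totals gave ratios of 0.985 for Lamb2 and 1.06 for Lamc1 in endothelial-like cells, Lama3 in pericyte-like cells was 0 under the stricter filter, and Lamc3 in smooth muscle-like cells was 1.10 at resolution 2. At resolution 2 the pericyte-like WT shares were 11.7% for Lamb1, 37.8% for Lamc3 and 46.9% for Lama2. Fibroblast-like and choroid plexus-like values rest on few cells, and chains under 20 UMIs in a class are limited by depth.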
